A study of Mus musculus with 35 samples.

Results

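Transcripts of 10 genes of the Nrf2 (Nfe2l2) antioxidant response were followed in 35 mice, in lumbar motoneurons cut out by laser. The genes were Nfe2l2, Keap1, Txnrd1, Akr1b8, Nqo1, Gclm, Gclc, Srxn1, Gsr and Hmox1. All probe sets of the array that name exactly 1 gene, this gene being 1 of the 10, were taken, which gave 20 of 45101 probe sets. Of the 20, 18 passed the intensity and variation filter, and each of the 10 genes kept at least 1. Where a gene had several, the one with the highest mean intensity over the 35 arrays is called the leading probe set. Probe sets whose number ends in _s_at or _x_at can also detect related sequences.

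The SOD1 mice were hemizygous females of B6.Cg-Tg(SOD1-G93A)1Gur/J, with many copies of the human SOD1 gene that bears the G93A mutation, and the WT mice were of C57BL/6J background. At week 11 of age, before motor signs, 8 SOD1 and 6 WT mice were studied without a stated treatment. At week 15, with motor impairment present, 7 SOD1 mice had received vehicle and 7 had received G-CSF since week 11 by subcutaneous osmotic minipump, and 7 WT mice were studied beside them. Each array held the amplified RNA of 300 cells of 1 mouse. Week of age went together with cohort and, in the SOD1 mice, with the pump, so these cannot be told apart. No pump is stated for the WT mice. In the comparisons with WT mice at week 15, genotype thus cannot be told apart from the pump and its vehicle. The transgene is active in all tissues, not in motoneurons alone, and the dissected profiles can include RNA from cells that touch a motoneuron.

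Nrf2 is a transcription factor that the adaptor protein Keap1 holds for degradation in unstressed cells. Oxidants and electrophiles modify Keap1, Nrf2 accumulates, pairs with a small Maf protein and binds antioxidant response elements in front of genes for detoxification, for glutathione and thioredoxin cycles and for heme breakdown. Since this control acts mainly on the protein, the transcripts of Nfe2l2 and Keap1 are not a measure of Nrf2 activity. In the spinal cord the response is best known from astrocytes.

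The sequence around the start of transcription is shown for the members whose values the results turn on. The promoter table of RefSeq (GRCm38.p6) listed 7 of the 10 genes with 9 transcription start sites, each as a window of 250 bases before to 50 bases after the start. The core of the antioxidant response element, TGANNNNGC, was searched on both strands. In the sequences that follow, 5′ to 3′ on the gene's strand, capitals mark each match on either strand, a match on the opposite strand reading GCNNNNTCA.
Srxn1, chr2:152105424-152105523, + strand: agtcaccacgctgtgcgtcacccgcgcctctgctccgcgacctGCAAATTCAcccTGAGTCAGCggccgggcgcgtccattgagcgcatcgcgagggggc
Gclm, chr3:122245407-122245506, + strand: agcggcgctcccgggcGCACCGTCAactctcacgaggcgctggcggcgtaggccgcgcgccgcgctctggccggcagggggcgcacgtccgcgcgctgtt
Txnrd1, chr10:82859096-82859195, + strand: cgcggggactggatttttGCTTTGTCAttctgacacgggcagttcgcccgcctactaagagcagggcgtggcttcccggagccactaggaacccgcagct
Akr1b8, chr6:34354124-34354162, + strand: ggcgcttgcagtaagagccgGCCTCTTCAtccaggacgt

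At least 1 match to TGANNNNGC lay in 7 of the 9 windows and in 6 of the 7 genes, against 41.3% of all 32851 promoter windows of the table. The window of Nqo1 held none. Of the 3 Txnrd1 windows the upstream one held none, and the printed stretch belongs to the start that follows it. The narrower form TGACNNNGC, every match of which is also one to TGANNNNGC, lay in 4 of the 9 windows and in 12.4% of all windows. The form TGANTCAGC, likewise part of TGANNNNGC, was found in the Srxn1 window alone among the members, 45 to 37 bases before the start, and in 1.19% of all windows. The match of Akr1b8 runs from 2 bases before to 7 bases after the start, so most of it lies within the transcript. A match describes letters in a window and is not a bound site.

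A gene was called where its leading probe set changed at least 1.5-fold in a limma fit over all 5 groups, with an adjusted p under 0.1 (Benjamini-Hochberg over all 31320 filtered probe sets of the comparison) and an unadjusted p under 0.05. At week 11, 2 of the 10 genes were called in SOD1 against WT mice, Txnrd1 and Akr1b8, both higher, where 1.71% of all 14256 genes were called. At week 15, 1 of the 10 was called in vehicle-treated SOD1 mice against WT mice, Akr1b8, again higher, with 7.12% of all genes called. None of the 10 was called in G-CSF against vehicle, where 0.0491% of all genes were called. The median difference of the 10 genes was 0.38 on the log2 scale at week 11, with 8 of 10 above 0, while the median of all genes was 0.03 and 53.7% lay above 0. At week 15 the median of the 10 was -0.07, with 5 of 10 above 0, and that of all genes 0.00.

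**Figure D1:**
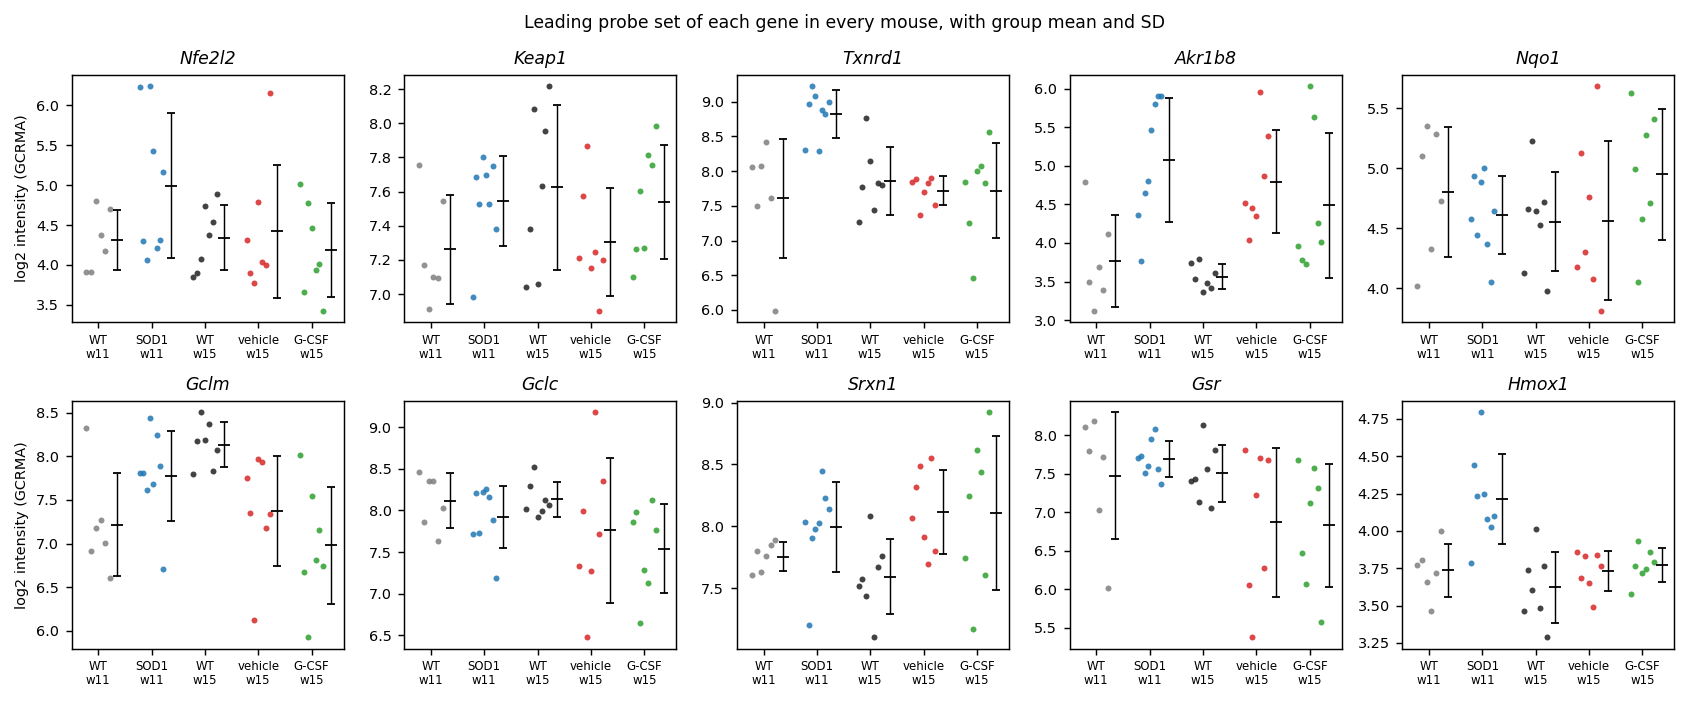
Log2 intensity of the leading probe set of each of the 10 genes (vertical axes, each with its own range) in every mouse of the 5 groups (horizontal axes), with the group mean and SD as a bar beside the points. For Akr1b8 all 7 vehicle-treated mice lie above all 7 WT mice of week 15, and for Txnrd1 6 of 8 SOD1 mice of week 11 lie above all 6 WT mice of that week.

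Motoneuron markers were over the 20th centile of all intensities on all 35 arrays for 10 of 10 genes measured. Their means over all arrays ran from 3.17 for Chat to 10.5 for Ret. By group, the mean level was 6.35 to 6.72 for the motoneuron list and 9.77 to 10.4 for the neuronal one. It was 6.82 to 7.32 for the astrocyte and 6.91 to 7.43 for the oligodendrocyte list, and lower for the microglial and endothelial lists. The share of each cell type was not estimated. Markers of other cells were present. Outside G-CSF, those called against WT mice were Gfap at both weeks and 5 microglial markers at week 15. The summed log2 level of 15 microglial markers ran from 57.5 to 62.9 in WT and from 55.5 to 71.9 in SOD1 mice at week 11, and at week 15 from 51.5 to 58.8 in WT, from 59.7 to 77.2 in vehicle-treated and from 54.8 to 82.2 in G-CSF-treated mice. The means of 13 of the 15, among them Csf1r at 7.86, Cx3cr1 at 4.08 and Tmem119 at 3.57, lay above the 20th centile of 2.40, and those of Aif1 and Itgam, 2.21 and 2.29, lay under it. Of the microglial markers that passed the filter, none of 13 was called at week 11 and 5 were called higher at week 15, among them Tyrobp by 2.82 and C1qb by 1.58. Of 12 astrocyte markers 1 was called at either week, Gfap, higher by 2.14 and by 3.70, and their summed level ran from 78.1 to 88.4 in WT and from 82.5 to 92.3 in vehicle-treated mice of week 15. None of 9 oligodendrocyte markers and none of the 7 endothelial markers that passed the filter was called at either week. Of 11 neuronal markers Eno2 was called higher at week 11, and Nefm, Rbfox3 and Map2 were called lower at week 15, as was Slit2 of the 10 motoneuron markers (difference -0.66), whose median difference at that week was -0.28. An earlier analysis had found 3 arrays apart from their groups, namely WT mouse 6 at week 11 and vehicle-treated mice 3 and 5. Called differences of leading probe sets that rest on them are also given without them. Those of Gclc and Gsr at week 15, not called, are given with all mice.

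Among the regulators, Nfe2l2, the gene of Nrf2 itself (1416543_at), lay between 3.91 and 4.80 in the WT mice of week 11, median 4.28, and between 4.07 and 6.24 in the SOD1 mice, median 4.74. Of the 8 SOD1 mice 4 lay above all WT mice, and the others overlapped with them. The difference was 0.68 ± 0.35 (SE) with an adjusted p of 0.49 (limma) and was not called. The medians at week 15 were 4.37 in WT, 4.04 in vehicle-treated and 4.01 in G-CSF-treated mice, and the difference between vehicle and WT was 0.08 ± 0.35. Its other probe set (1457117_at) had a mean of 2.23 over all arrays, under the 20th centile, and did not pass the filter on variation.

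Keap1, the adaptor that holds Nrf2 (1450746_at), differed by 0.28 ± 0.19 at week 11 and by -0.32 ± 0.19 at week 15, and neither difference was called (adjusted p = 0.652 and 0.365, limma). Its values ran from 6.91 to 7.76 in WT and from 6.98 to 7.80 in SOD1 mice at week 11, so the groups overlapped over nearly their whole range. The same held at week 15, from 7.04 to 8.22 in WT and from 6.90 to 7.87 in vehicle-treated mice. Its other probe set (1450747_at), mean 2.87, did not pass the filter on variation.

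Of the thioredoxin branch, Txnrd1 (chr10:82833951-82897724, GRCm38.p6) encodes the cytosolic thioredoxin reductase, which keeps thioredoxin reduced with NADPH. Its leading probe set (1421529_a_at) ran from 8.29 to 9.23 in the 8 SOD1 mice of week 11, median 8.92. In the 6 WT mice of that week the values were 8.05, 7.50, 8.07, 8.41, 7.61 and 5.99. The SOD1 mice were thus high as a group, 6 of 8 above all WT mice, and WT mouse 6 lay far under the other WT mice. The difference was 1.21 ± 0.29 (SE), or 2.32-fold (adjusted p = 0.039, limma). Without WT mouse 6 it fell to 0.89 with an adjusted p of 0.122 and was no longer called, and a fit of the WT and SOD1 mice of week 11 alone gave an adjusted p of 0.108 (limma).

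At week 15 the same probe set showed no such separation. The WT mice lay between 7.27 and 8.76, median 7.80, the vehicle-treated mice between 7.37 and 7.90, median 7.82, and the G-CSF-treated mice between 6.45 and 8.57, median 7.84. All 3 groups overlapped, and vehicle differed from WT by -0.14 ± 0.28 with a 95% interval from -0.72 to 0.44 (adjusted p = 0.826, limma). The other probe sets of Txnrd1 did not follow the leading one. At week 11 1424486_a_at differed by 0.48 ± 0.46 and 1424487_x_at by 0.12 ± 0.22, neither called. Over the 35 mice, the deviations from the group means correlated at 0.74 between these 2 probe sets and at -0.13 and -0.14 with the leading one. With the mean of the 3 probe sets in place of the leading one, the difference of Txnrd1 at week 11 was 0.60 and was not called (adjusted p = 0.205, limma).

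**Figure D2:**
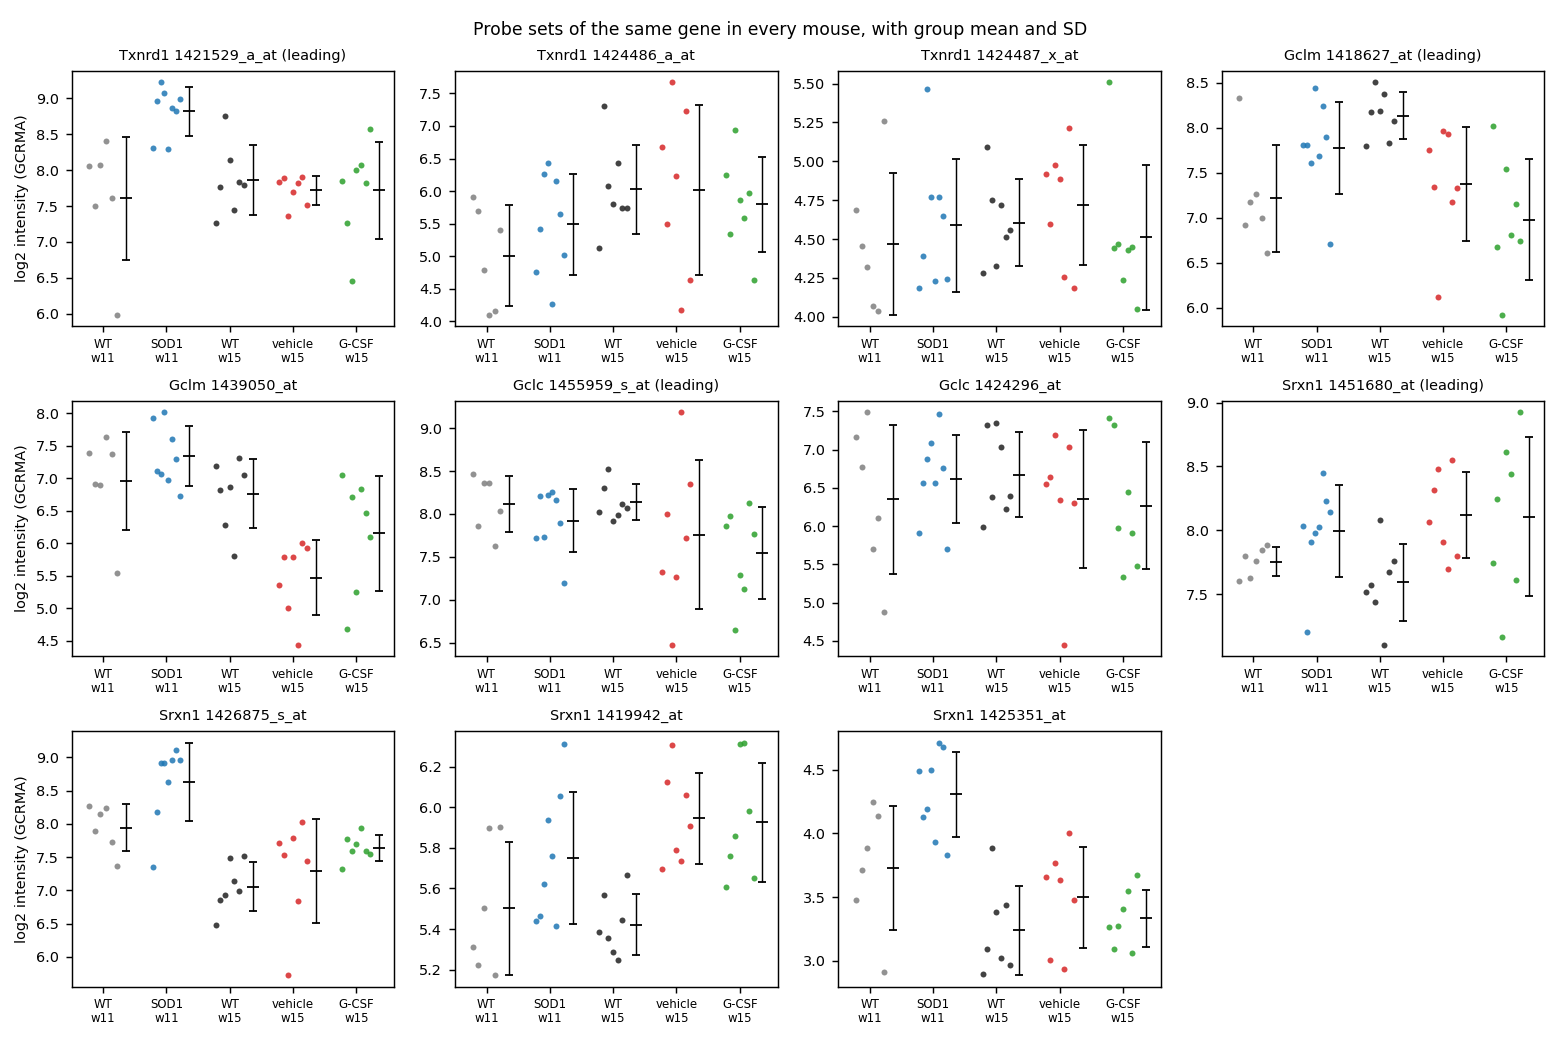
Log2 intensity in every mouse for all filtered probe sets of Txnrd1, Gclm, Gclc and Srxn1, 1 panel per probe set with its own vertical range, the 5 groups along the horizontal axis and the group mean with SD as a bar. The separation of the SOD1 mice of week 11 is seen for Txnrd1 at 1421529_a_at and not at the other 2 probe sets, and for Gclm the vehicle-treated mice lie lower against WT at 1439050_at, by 1.29, than at 1418627_at, by 0.76.

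Srxn1 (chr2:152105524-152111376) encodes sulfiredoxin, which restores overoxidized peroxiredoxins, and had 4 filtered probe sets. The leading one (1451680_at) lay between 7.61 and 7.89 in the WT mice of week 11 and between 7.20 and 8.45 in the SOD1 mice. Of these 8 mice 7 lay above all WT mice and SOD1 mouse 2 lay below all of them. The difference was 0.24 ± 0.21 and was not called (adjusted p = 0.765, limma). The probe set 1426875_s_at had a larger difference, 0.69 ± 0.27, with 6 of 8 SOD1 mice above and 1 below all WT mice, and 1425351_at differed by 0.58 ± 0.20, and neither was called (adjusted p = 0.291 and 0.201, limma).

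At week 15 the leading probe set of Srxn1 ran from 7.10 to 8.08 in WT, median 7.58, and from 7.70 to 8.55 in vehicle-treated mice, median 8.06. Of the 7 vehicle-treated mice 3 lay above all WT mice, and the difference of 0.52 ± 0.21 was not called (adjusted p = 0.151, limma). At 1419942_at the WT mice lay between 5.25 and 5.67 and the vehicle-treated mice between 5.70 and 6.31, so that the groups did not overlap. Its difference of 0.53 ± 0.15 had an adjusted p of 0.0489 (limma), but at 1.44-fold it stayed under the minimum of 1.5-fold and was not called. At the level of probe sets, 5.87% of all filtered probe sets were called in this comparison and 2 of the 18 of the members, Akr1b8 higher and 1 of Gclm lower. G-CSF-treated mice lay between 5.61 and 6.32 at 1419942_at, with 5 of 7 above all WT mice. All 4 probe sets of Srxn1 had a positive difference in either week, from 0.24 to 0.69.

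Akr1b8 (chr6:34354146-34368461) encodes an aldo-keto reductase of the aldose reductase family, which reduces reactive aldehydes, and was measured by 1 probe set (1448894_at). In the 8 SOD1 mice of week 11 the values were 4.36, 3.77, 4.64, 4.80, 5.46, 5.80, 5.90 and 5.90, and in the 6 WT mice 4.79, 3.50, 3.12, 3.69, 3.39 and 4.11. Of the SOD1 mice 5 lay above all WT mice and 3 lay within their range. The difference was 1.31 ± 0.36, or 2.48-fold (adjusted p = 0.082, limma). The call was close to its limit, since it was lost without any one of SOD1 mice 4 to 8 or of WT mice 2 to 6, where the difference stayed between 1.18 and 1.38 and the adjusted p lay between 0.1 and 0.197.

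At week 15 the 7 WT mice were all low, between 3.36 and 3.79, median 3.53. The vehicle-treated mice gave 4.52, 4.04, 4.46, 4.34, 5.95, 4.86 and 5.38, so that none overlapped with WT. The difference was 1.23 ± 0.36, or 2.35-fold (adjusted p = 0.0449, limma), and it was called without any single mouse, with values from 1.04 to 1.36. Without WT mouse 6 of week 11 and vehicle-treated mice 3 and 5 together it was 1.07 and was not called (adjusted p = 0.122, limma), nor was it with array weights (1.21, adjusted p = 0.11). The summed microglial markers, given above, were also higher in all vehicle-treated than in all WT mice of week 15, and Gfap was higher while the median difference of the 12 astrocyte markers was 0.00. Their part in the difference of Akr1b8 was not tested. In bulk RNA, fewer cells of a type and less RNA per cell cannot be told apart. The effects of the 2 weeks differed by -0.08 ± 0.51, with an adjusted p of 0.948 (limma).

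The G-CSF-treated mice were spread widely for Akr1b8, at 3.96, 3.78, 3.73, 6.04, 5.63, 4.26 and 4.02. Of these 7 mice 4 lay below all vehicle-treated mice and 1 above all of them, and 5 lay above all WT mice. The difference from vehicle was -0.31 ± 0.36 with a 95% interval from -1.03 to 0.42, and that from WT was 0.93 ± 0.36, and neither was called (adjusted p = 0.855 and 0.249, limma). Of the close relatives of Akr1b8, Akr1b10 was the 1 with a probe set that names it alone. Its means were 6.69 and 7.08 in WT and SOD1 mice of week 11 and 6.22 and 6.09 in WT and vehicle-treated mice of week 15, and it was called in neither comparison (differences 0.39 and -0.13).

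Nqo1, a quinone reductase often used as a readout of Nrf2, was measured by 1 probe set (1423627_at). It ran from 4.02 to 5.35 in WT and from 4.05 to 5.00 in SOD1 mice of week 11, and from 3.98 to 5.23 in WT and from 3.81 to 5.69 in vehicle-treated mice of week 15. The groups overlapped at both weeks, and the differences were -0.19 ± 0.27 and 0.01 ± 0.26. The 95% intervals ran from -0.73 to 0.35 and from -0.53 to 0.55.

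Of the glutathione branch, Gclm (chr3:122245487-122267215) encodes the modifier subunit of glutamate-cysteine ligase, the first enzyme of glutathione synthesis. Its leading probe set (1418627_at) was high in the WT mice of week 15, between 7.80 and 8.51 with a median of 8.18. The vehicle-treated mice lay between 6.12 and 7.96, median 7.35, and the G-CSF-treated mice between 5.93 and 8.02, median 6.81. Of the 7 vehicle-treated mice 5 lay below all WT mice, and of the 7 G-CSF-treated mice 6 did. The lowest vehicle-treated mouse, 3 at 6.12, is one whose array stands apart. Vehicle differed from WT by -0.76 ± 0.29, which was not called (adjusted p = 0.129, limma). G-CSF differed from WT by -1.16 ± 0.29, or 2.23-fold lower (adjusted p = 0.0502, limma), and Gclm was the 1 gene of the 10 called in this comparison, with 1.39% of all genes called. Both comparisons share the WT mice. The call against WT was lost without G-CSF-treated mouse 2, 3 or 7 or WT mouse 3, with differences from -1.12 to -0.98.

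The other probe set of Gclm (1439050_at) lay between 5.81 and 7.31 in WT, between 4.44 and 6.01 in vehicle-treated and between 4.68 and 7.05 in G-CSF-treated mice. Vehicle was lower than WT by 1.29 ± 0.34, a difference of -1.29 with 5 of 7 mice below all WT mice, and this probe set was called (adjusted p = 0.0246, limma). The lowest vehicle-treated mice, 5 at 4.44 and 3 at 5.00, are among those whose arrays stand apart. G-CSF differed from vehicle by 0.68 ± 0.34 at this probe set (unadjusted p = 0.0499, adjusted p = 0.599, limma), the smallest p of the 18 member probe sets in that comparison, and by -0.39 ± 0.29 at the leading one. Against WT, G-CSF differed by -0.61 ± 0.34 at 1439050_at, with 2 of 7 mice below all WT mice. Unlike at the leading probe set, this was not called (adjusted p = 0.458, limma). The probe sets thus shared the direction of the difference between vehicle and WT, and gave opposite signs for G-CSF against vehicle, where neither was called. Their deviations from the group means correlated at 0.20 over the 35 mice. At week 11 the SOD1 mice differed from WT by 0.56 ± 0.29 and 0.38 ± 0.34 at the 2 probe sets, neither called.

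Gclc encodes the catalytic subunit of the same enzyme. Its leading probe set (1455959_s_at) differed by -0.20 ± 0.27 at week 11 and by -0.38 ± 0.27 at week 15. The WT mice of week 15 lay within 7.92 to 8.53, whereas the vehicle-treated mice ran from 6.48 to 9.18, with 4 below and 1 above all WT mice. Both ends were set by arrays that stand apart, mouse 3 at 6.48 and mouse 5 at 9.18. The other probe set (1424296_at) differed by 0.26 ± 0.40 and -0.31 ± 0.40, and none of these differences was called.

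Gsr encodes glutathione reductase, which returns oxidized glutathione to its reduced form. At week 15 its leading probe set (1421817_at) ran from 7.06 to 8.13 in WT, median 7.44, from 5.37 to 7.81 in vehicle-treated mice, median 7.22, and from 5.57 to 7.69 in G-CSF-treated mice, median 7.12. In each treated group 3 of 7 mice lay below all WT mice and the others overlapped with them. The lowest vehicle-treated mouse, 3 at 5.37, is one whose array stands apart. The difference between vehicle and WT was -0.63 ± 0.35 and was not called (adjusted p = 0.326, limma). At week 11 the difference was 0.21 ± 0.36. Its other probe set (1421816_at) differed by 0.10 ± 0.18 at week 11 and by -0.11 ± 0.17 at week 15, neither called.

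Hmox1, the inducible heme oxygenase, was measured by 1 probe set (1448239_at). It lay between 3.46 and 4.00 in the WT mice of week 11, median 3.75, and between 3.78 and 4.79 in the SOD1 mice, median 4.17. Of the 8 SOD1 mice 7 lay above all WT mice. The difference of 0.48 ± 0.13 had an adjusted p of 0.0708 (limma), but at 1.39-fold it was under the minimum fold and was not called. The 3 groups of week 15 overlapped, with medians of 3.60 in WT, 3.76 in vehicle-treated and 3.76 in G-CSF-treated mice, and vehicle differed from WT by 0.11 ± 0.13.

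**Figure D3:**
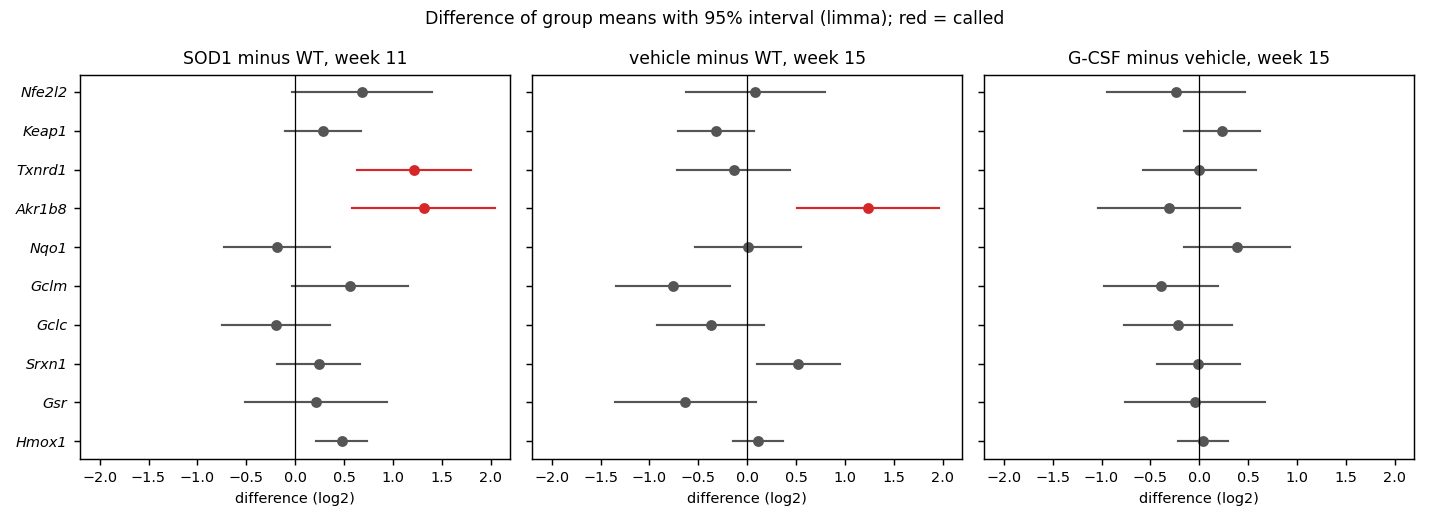
Difference of group means (log2, horizontal axis) of the leading probe set of each of the 10 genes with its 95% interval from limma, for SOD1 against WT at week 11, vehicle against WT at week 15 and G-CSF against vehicle at week 15. Red marks the called genes, Txnrd1 and Akr1b8 at week 11 and Akr1b8 at week 15, and in the G-CSF panel all 10 intervals include 0.

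G-CSF against vehicle gave no call among the members, at gene level or among the 18 probe sets, with 0.0383% of all filtered probe sets called. At an unadjusted p under 0.05 (limma) none of the 10 leading probe sets passed, against 8.64% of all genes. Of the 18 probe sets 1 did. The Tukey comparison of the methods called none of the 10 genes, and 353 of all 31320 filtered probe sets. The median difference of the 10 was -0.03, with 3 of 10 above 0. The largest differences in size were those of Gclm at -0.39 and of Nqo1 at 0.39 ± 0.26, and the smallest was that of Txnrd1 at 0.00 with an interval from -0.58 to 0.58. The bound farthest from 0 among the 10 intervals was that of Akr1b8, -1.03, so these misses do not show that G-CSF left the genes unchanged.

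The differences between SOD1 and WT mice at the 2 weeks, called effects here, were also compared with each other. Of the 10 genes 2 were called in the difference of the effects, both lower at week 15, with 3.25% of all genes called. Txnrd1 went from 1.21 at week 11 to -0.14 at week 15, a difference of -1.35 ± 0.41 (adjusted p = 0.0902, limma). Its other probe sets, 1424486_a_at and 1424487_x_at, gave -0.50 ± 0.64 and -0.01 ± 0.31, neither called, and the mean of the 3 probe sets gave -0.62 ± 0.31 (adjusted p = 0.268, limma). Gclm went from 0.56 to -0.76, a difference of -1.32 ± 0.41 (adjusted p = 0.098, limma), and its other probe set differed by -1.68 ± 0.48 (adjusted p = 0.0795, limma), where 2.9% of all filtered probe sets were called. At that other probe set WT mouse 6 of week 11 was the lowest of its group at 5.54. Vehicle-treated mice 5 and 3 were the lowest of theirs at 4.44 and 5.00. Its differences without these arrays, which stand apart, are not given here. Of the 10 genes 8 had a smaller or more negative effect at week 15, and the median of the 10 was -0.48 against -0.05 for all genes. Both calls were near the limit. They fell away for Txnrd1 without any 1 of 17 of the 35 mice, with values from -1.38 to -1.03 there, and for Gclm without any 1 of 26, with values from -1.38 to -1.11. Without WT mouse 6 of week 11 the difference of Txnrd1 was -1.03 (adjusted p = 0.184, limma) and that of Gclm -1.20 (adjusted p = 0.195, limma).

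The WT mice themselves differed between the weeks for 1 of the 10 genes, with 5.36% of all genes called. Gclm was higher in the WT mice of week 15 than in those of week 11 by 0.92 ± 0.30 at the leading probe set (adjusted p = 0.0761, limma), and its other probe set differed by -0.19 ± 0.35. The call was lost without any 1 of WT mice 2 to 6 of week 11 or WT mice 2 to 5 of week 15, with values from 0.80 to 0.93. Among the other probe sets of the members, Srxn1 1426875_s_at was lower in the WT mice of week 15 by 0.88 ± 0.28, a difference of -0.88 (adjusted p = 0.0639, limma), with 5.55% of all filtered probe sets called. Between the weeks in WT mice 3 of 9 oligodendrocyte markers were called, Mag, Mobp and Cnp, by 0.95, 1.12 and 0.60. Of 12 astrocyte markers 1 was called, Slc1a2 by 1.36, and of 13 microglial markers 1, Ctss by -1.78. The median differences of these 3 lists were 0.50, 0.16 and -0.20. Of 10 motoneuron markers 1 was called higher and 1 lower, and none of 11 neuronal or 7 endothelial markers was called. The summed level of the 9 oligodendrocyte markers ran from 53.6 to 67.7 at week 11 and from 65.3 to 68.7 at week 15, and the part of these markers in the difference of Gclm was not tested. The 18S ribosomal RNA control separated the weeks as well, from 9.23 to 10.9 in WT mice of week 11 and from 12.7 to 13.5 in those of week 15. With this control as a covariate the difference of Gclm between the weeks was 0.39 ± 0.69 (adjusted p = 0.957, limma). As the control did not overlap between these WT groups, this fit cannot tell its part from that of the week.

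Of 43 other genes of the pathway, 40 had a probe set that names them alone and passed the filter, and Ftl1, G6pdx and Prdx1 had none. At week 11 the only one called was Nfe2l1, which encodes a transcription factor related to Nrf2, higher by 0.78 ± 0.20 (adjusted p = 0.0534, limma). Sqstm1, which encodes the Keap1-binding autophagy receptor p62, had means of 7.80 in WT and 8.80 in SOD1 mice and was not called (difference 1.00 ± 0.32, adjusted p = 0.153, limma). Aox1, an aldehyde oxidase, went the other way, with means of 7.97 in WT and 6.84 in SOD1 mice. It was not called either (difference -1.13 ± 0.33, adjusted p = 0.11, limma). The median of the 40 was 0.11. At week 15 none was called higher and 4 were called lower in vehicle-treated mice, against 5.18% of all genes called lower, and the median of the 40 was -0.25.

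The 4 genes lower at week 15 were Abcc1, an exporter of glutathione conjugates, with a difference of -1.53 ± 0.43 (adjusted p = 0.0403, limma), Me1, the cytosolic malic enzyme that supplies NADPH, with -0.89 ± 0.18 (adjusted p = 0.0047, limma), Ephx1, the microsomal epoxide hydrolase, with -1.02 ± 0.33, and Aldh3a2, a fatty aldehyde dehydrogenase, with -0.87 ± 0.29. Their means in G-CSF-treated mice lay between those of vehicle-treated and WT mice. For Me1 it was 7.62, between 7.34 and 8.23, and for Abcc1 6.02, between 5.50 and 7.02. These 4 genes were chosen for low vehicle values against WT, so this order is a description. None of the 40 was called in G-CSF against vehicle, a comparison that shares the vehicle-treated mice with that of vehicle against WT. In the difference of the effects between the weeks 4 of the 40 were called, all lower at week 15, namely Sqstm1 (-1.49 ± 0.45), Me1 (-1.10 ± 0.26), Nfe2l1 (-0.94 ± 0.27) and Gstp1 (-0.78 ± 0.21), with 2.48% of all genes called lower. Between the weeks in WT mice, Nfe2l1 was called higher by 0.79 and Txn1, which encodes thioredoxin, was lower by 0.68, a difference of -0.68.

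**Figure D4:**
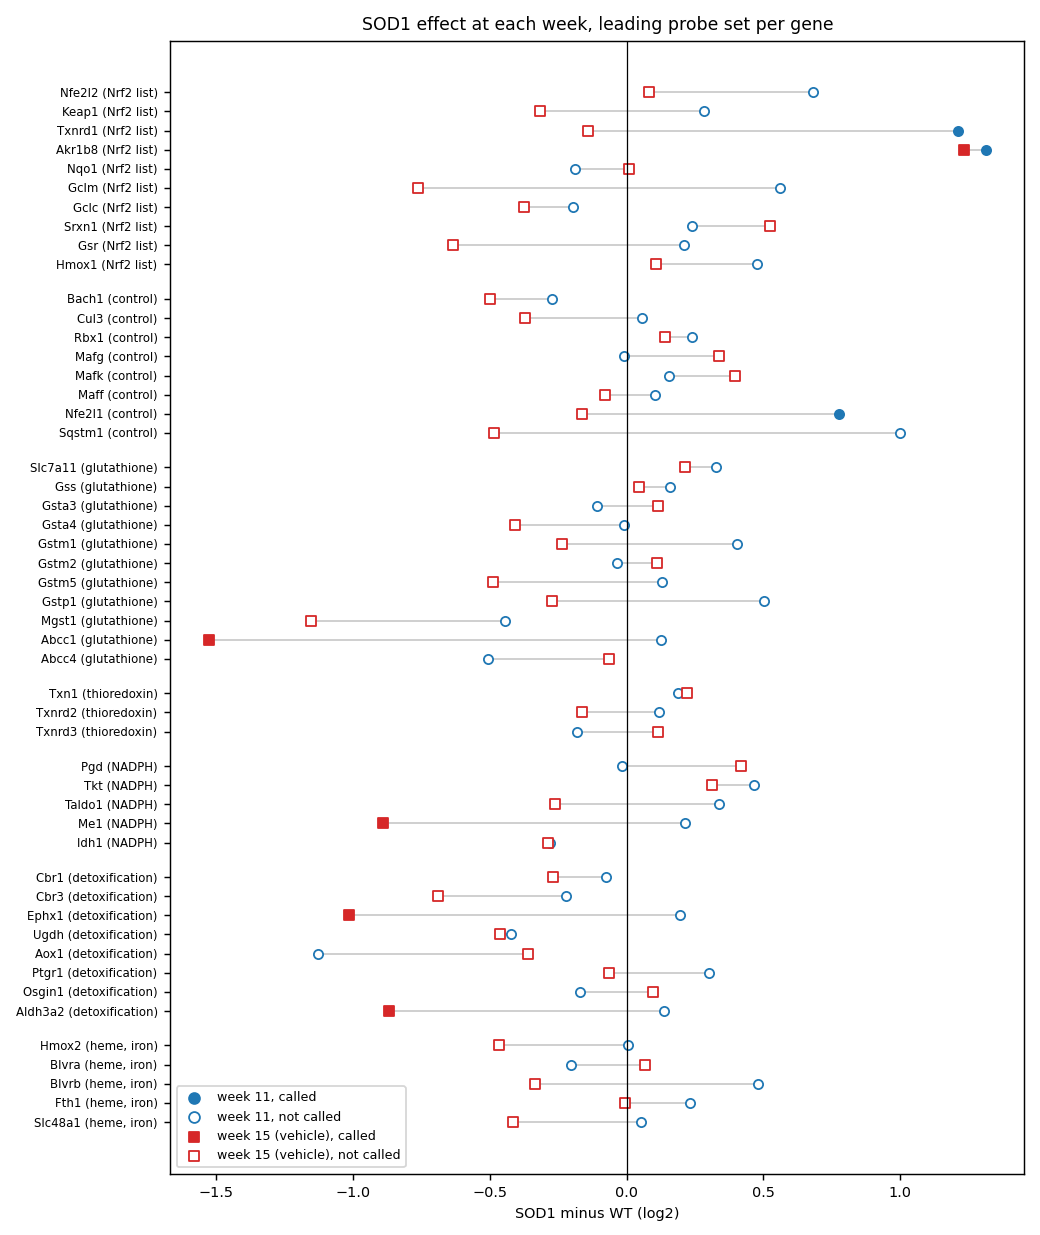
Difference between SOD1 and WT mice (log2, horizontal axis) at week 11 (circles) and week 15, vehicle-treated (squares), for the leading probe set of the 10 genes at the top and of the 40 other pathway genes by role, filled where called. The circles filled are Txnrd1, Akr1b8 and Nfe2l1, and the squares filled are Akr1b8 on the right and Abcc1, Me1, Ephx1 and Aldh3a2 on the left.

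From mouse to mouse, correlations among the leading probe sets of the members ranged widely, down to -0.344 (Pearson) for Keap1 with Gsr. Among the 45 pairs of leading probe sets, the deviations from the group means over 35 mice correlated most for Gclm with Gsr (Pearson 0.629, Spearman 0.574) and for Gclm with Gclc (0.573 and 0.400), and Nfe2l2 with Txnrd1 gave -0.25 and -0.18. These points share the array and its amplification. Other genes were compared with the leading probe sets of Txnrd1 and Akr1b8, each at its filtered probe set with the highest correlation. The closest to Txnrd1 over the 35 mice were Swi5 (Pearson 0.859), Enpp5 (0.836), Eif3c (0.830), Mif (0.820) and Bcat1 (0.817). For the deviations from the group means these values were between 0.735 and 0.793. For Akr1b8 they were Ccn3 (0.799), Atf3, a transcription factor induced by injury (0.786), Sprr1a, a small proline-rich protein induced in injured neurons (0.749), Flnc (0.742) and Cstb (0.733), and for the deviations between 0.520 and 0.605. The mean of Atf3 was 3.53 in WT and 7.38 in SOD1 mice of week 11, and 3.30, 6.62 and 5.71 in WT, vehicle-treated and G-CSF-treated mice of week 15. Since Atf3 was chosen for its likeness to Akr1b8 in these mice, its means are a description.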

How the data were processed

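RNA of laser-dissected lumbar motoneurons of 35 mice was amplified by consecutive rounds with T7 polymerase and hybridized to Affymetrix mouse genome arrays, 1 per mouse. In Expression Console of Affymetrix the authors applied GCRMA (the versions of both are not given in the sources used here). What they deposited is 1 log2 intensity per probe set and array. Probe sets were named through the annotation of the platform: 34958 name 1 gene, 932 several and 9211 none. Differences of dim probe sets depend on the background correction of GCRMA. The number of arrays limits the precision.

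The filter of the methods was kept: 4 or more arrays above the 20th centile (2.40), and an SD not under the 30th centile (0.241). Without 64 control probe sets this left 31320 probe sets of 14256 named genes. Group means were compared in limma 3.58.1 under R 4.3.3, and thresholds followed the methods. The methods name Tukey comparisons, run here as an alternative. All 10 genes are named with every probe set, pathway genes where called, and the 5 closest genes by Pearson correlation for Txnrd1 and Akr1b8. The values of Sqstm1 and Aox1 at week 11, where neither was called, were added after they were seen. The members, the pathway list and the marker lists were chosen with earlier results of these data known. The labels' replicate numbers name different animals and do not pair mice.

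Alternatives were other filters and thresholds, quantile normalization, the groups of 1 contrast alone, array weights, a replicate block, an eBayes trend on intensity, the 18S control as a covariate, a floor, the mean of a gene's probe sets, 3 arrays left out and each mouse left out. On simulated data with 31320 probe sets, limma found 55.2% of 2-fold changes and 14.9% of 1.5-fold changes at week 11, and 50.7% and 17.9% at week 15. Promoter sequences are those of RefSeq. Tables and figures were made with pandas 2.3.3 and matplotlib 3.10.9 in Python 3.11.15. Quantitative PCR data were not used here.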

Additional observations from a re-analysis of the deposited data

Results flagged for a closer look

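In 3 of 50 groups of values (10 genes in 5 groups) 1 mouse lay apart from the rest of its group by Dixon's criterion, and chance alone gives this in about 1 of 20 groups. Vehicle-treated mouse 7 had an Nfe2l2 value of 6.15, with the nearest mouse of its group at 4.78 and the lowest at 3.77. Vehicle-treated mouse 3, whose array stands apart in general, had a Gclm value of 6.12, with the nearest mouse at 7.17. SOD1 mouse 2 of week 11 had an Srxn1 value of 7.20, with the nearest mouse at 7.91 and the highest at 8.45.

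The test of the difference itself called the gap between SOD1 and WT mice lower at week 15 than at week 11 for Txnrd1 and Gclm. At their leading probe sets it changed by -1.35 ± 0.41 (adjusted p = 0.0902, limma) and by -1.32 ± 0.41 (adjusted p = 0.098, limma). The call was lost without any 1 of 17 mice for Txnrd1 and of 26 for Gclm. Week went together with cohort and, in the SOD1 mice, with the pump. The other probe sets of Txnrd1 gave -0.50 and -0.01 and the mean of its 3 probe sets -0.62 (adjusted p = 0.268, limma), none called, whereas the other probe set of Gclm gave -1.68 (adjusted p = 0.0795, limma).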

How the results depend on the processing

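In all 49 alternatives G-CSF against vehicle called 0 of the 10 genes, and no called difference changed sign in the alternatives run. At week 11, where 2 genes were called, 1 was called with quantile normalization (Txnrd1), with an adjusted p under 0.05 and no minimum fold (Txnrd1), with the 18S covariate (Txnrd1), with the mean of all probe sets per gene (Akr1b8) and without the 3 arrays that stand apart (Akr1b8), 0 with the groups of the contrast alone, 3 with an adjusted p under 0.1 and no minimum fold (Hmox1 being added), and 0 to 2 when each mouse was left out. At week 15, where 1 was called, 2 were called with quantile normalization (Akr1b8 and Srxn1) and with the mean of all probe sets (Akr1b8 and Gclm), 0 with array weights and 0 without the 3 arrays, and 1 to 2 without single mice, Gclm being added without vehicle-treated mouse 4 or 5 (-0.86 and -0.85). For G-CSF against WT, 1 became 0 at an adjusted p under 0.05, and leaving out single mice gave 0 to 1. For the difference between the weeks, 2 became 0 with quantile normalization, at an adjusted p under 0.05, with the 18S covariate and without the 3 arrays, 1 with array weights (Txnrd1) and 1 with the mean of all probe sets (Gclm), and 0 to 2 without single mice. For WT between the weeks, 1 became 0 at an adjusted p under 0.05, with the 18S covariate and with the mean of all probe sets, and 0 to 1 without single mice. Calls over all 31320 filtered probe sets moved with the setting too. At week 11 there were 413 in the main fit, 216 with quantile normalization, 290 with the groups of the contrast alone and 1110 with array weights. At week 15 these were 1839, 1565, 1155 and 1525. With the mean of all probe sets, 249 and 1028 of 14256 genes were called at the 2 weeks. Calls for the difference between the weeks went from 908 to 327 with quantile normalization and to 197 without the 3 arrays. The causes of these shifts were not tested.

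With the replicate number as a block, 0 genes were called at week 11, 2 at week 15 (Akr1b8 and Gclm), 0 for G-CSF against vehicle, 1 for G-CSF against WT (Gclm), 1 for the difference between the weeks (Gclm) and 1 for WT between the weeks (Gclm). Mice of the same number and different groups deviated together at a mean correlation of -0.01 over 66 pairs, from -0.21 to 0.14, so the numbers are names only and the block is no pairing. Over all filtered probe sets, 413 calls at week 11 became 155 with the block. For G-CSF against vehicle 12 became 353 under the Tukey comparison, 52 without the 3 arrays and 0 with the groups of the contrast alone. For WT between the weeks 1738 became 36 with the 18S covariate, which did not overlap between these groups.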
